A study of Mus musculus with 2 samples.

Results

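MHC class II-high macrophages are described here as they were found by droplet single-cell RNA sequencing in a mouse leg muscle, the tibialis anterior, on day 4 after injury. The injury was made with cardiotoxin, a snake venom toxin that lyses muscle fibres (10 µM, 50 µl). They are the 211 of 6724 cell barcodes in both libraries that met a rule on counts. A barcode needed at least 3000 UMIs (unique molecular identifiers, which count captured RNA molecules), at most 20% of UMIs from mitochondrial genes, at least 200 UMIs per 10000 from *H2-Aa*, *H2-Ab1*, *H2-Eb1* and *Cd74* together, and at least 1 UMI of *C1qa*, *C1qb* or *C1qc*. It also needed under 10 UMIs per 10000 from *Ifit1*, *Ifit2*, *Ifit3*, *Rsad2* and *Cxcl10* together, at most 1 UMI of *Cd209a*, at most 2 of *Ccr7* and *Fscn1*, at most 1 of *Hp* and *Vcan* and at most 4 of *Col1a1*, *Col1a2* and *Col3a1*. The Wt library, from C57BL/6 mice, gave 147 members of 3290 barcodes. The Gata3KO library, labelled C57BL/6:Cx3cr1CRExGata3fl/fl, in which Cre recombinase driven by *Cx3cr1* deletes floxed *Gata3*, gave 64 of 3434. Both groups were injected, carried no other stated allele, and were sorted as live CD45+ CD11b+ Ly6G- cells; the age, sex and number of mice were not stated. *Cx3cr1* is active in monocytes, macrophages and other myeloid cells, so the deletion is not limited to the members.

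MHC class II proteins bind peptides cut from material that a cell has taken up and display them to CD4+ T cells. *H2-Aa*, *H2-Ab1* and *H2-Eb1* encode chains of the peptide-binding dimers, and *Cd74* encodes the invariant chain that guides them to the endosome. Macrophages with much MHC class II and *Ccr2* arise largely from blood monocytes, and conventional dendritic cells, which share MHC class II with them, are told apart by genes such as *Flt3* and *Zbtb46*.

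The libraries held 1.54e+07 (Wt) and 1.94e+07 (Gata3KO) UMIs, with medians of 2616 and 3059 per barcode, and 1119 and 1004 barcodes lay within the UMI and mitochondrial limits. With 1 library per genotype no test between genotypes was possible, and intervals at the 95% level cover counting error only. Cells are not replicates, and differences between mice, sorts and library preparations cannot be told apart from the genotype. The libraries shared 2 barcodes, of which 0 were members.

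Members made up 13.1% (147 of 1119, exact Clopper-Pearson interval 11.2 to 15.3) of the barcodes within the limits in Wt and 6.37% (64 of 1004, 4.94 to 8.07) in Gata3KO. These shares are set by the rule, which uses genes that differed between the libraries. The MHC class II minimum was met by 30.9% of the barcodes within the limits in Wt and 13% in Gata3KO, and the interferon limit by 75.2% and 94.9%. The 5 members nearest the MHC class II minimum had 201 to 208 UMIs per 10000 in Wt and 201 to 212 in Gata3KO, and the 5 barcodes nearest below it that met every other condition had 194 to 199 and 194 to 197. The median member had 413 MHC class II UMIs per 10000 in Wt, with a range of 201 to 919, and 304 in Gata3KO, with a range of 201 to 751. Members of Gata3KO held more UMIs and genes per barcode, with a median of 11183 UMIs and 3021 genes against 7226 UMIs and 2380 genes in Wt.

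The label's markers are described here. Members were chosen with earlier results of these data known, so marker levels are no independent test of the label. *Ccr2*, the chemokine receptor of inflammatory monocytes, had a summed level of 1075 CPM (UMIs of the gene per 1e+06 UMIs) in Wt members and 826 CPM in Gata3KO members. Once every barcode was thinned to 3000 UMIs, *Ccr2* was detected in 81.6% and 73.4% of members (92.5% and 89.1% without thinning), against 0% (18.8% and 0% unthinned) of the 32 and 7 barcodes of mature dendritic type, which have 10 or more *Ccr7* and *Fscn1* UMIs and medians of 11185 and 14533 UMIs. With 7 barcodes, a share of 0% in Gata3KO allows up to 42.9% (3 counts of the total). *Clec4b1*, a C-type lectin, was detected in 33.3% and 29.7% of thinned members (54.4% and 50.0% unthinned) and in 3.13% and 0% of the thinned mature dendritic barcodes (9.38% and 14.3% unthinned). *Clec10a* was in 25.9% and 14.1% of thinned members (34.0% and 31.3% unthinned). In mature dendritic barcodes it was in 0% and 0%, thinned or not. *Rnase6* was in 38.1% and 21.9% of thinned members (56.5% and 35.9% unthinned). In thinned mature dendritic barcodes *Rnase6* was in 28.1% and 14.3% (43.8% and 14.3% unthinned). The macrophage genes *Csf1r*, the receptor for CSF1, and *Adgre1*, which encodes F4/80, were present too: *Csf1r* in 69.4% and 70.3% of thinned members (88.4% and 93.8% unthinned), and *Adgre1* in 36.1% and 53.1% (55.1% and 76.6%), against 6.25% and 0% for *Csf1r* (18.8% and 42.9% unthinned) and 0% and 0% for *Adgre1* (3.13% and 0%) in the thinned mature dendritic barcodes. *Fcgr1*, the high-affinity IgG receptor, was in 66.0% and 53.1% of thinned members (87.8% and 82.8% unthinned), against 9.38% and 0% (28.1% and 0%). The macrophage gene *Mertk* was in only 9.52% and 9.38% of thinned members (16.3% and 34.4% unthinned). The dendritic gene *Flt3* was in 7.48% and 14.1% (17.0% and 18.8% unthinned). In thinned mature dendritic barcodes *Mertk* was in 0% and 0%, and *Flt3* in 40.6% and 14.3%. Which of *Flt3* and *Mertk* was found more often was not settled in either library. Of thinned members 11 in Wt and 9 in Gata3KO had *Flt3*, and 14 and 6 had *Mertk*. The exact intervals of the 2 genes overlapped, and the order turned over without thinning in both libraries. *Ccr2* and *Clec4b1* do not set members apart from dendritic barcodes of another kind: in the 38 Wt and 18 Gata3KO barcodes that met every condition but had 2 or more *Cd209a* UMIs, *Ccr2* was at 757 and 996 CPM and *Clec4b1* at 239 and 300 CPM, beside 257 and 206 CPM of *Clec4b1* in members. The markers *Clec10a* and *Rnase6* were higher in those *Cd209a* barcodes than in members. *Clec10a* was at 443 and 691 CPM there and at 183 and 76.0 CPM in members. *Rnase6* was at 414 and 249 CPM there and at 189 and 73.3 CPM in members. *Csf1r* was at 199 and 102 CPM in those barcodes and at 521 and 644 CPM in members, and *Adgre1* at 81.3 and 76.2 CPM against 153 and 282 CPM.

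The C1q condition is weak evidence of a macrophage on its own. C1q UMIs, at least 1 in each member by the rule, were also found in 20 of 32 mature dendritic barcodes in Wt (62.5%, median 1 UMI) and 6 of 7 in Gata3KO (85.7%, median 2 UMIs). Members had medians of 24 and 21.5 C1q UMIs, and 107 of 147 (72.8%) and 50 of 64 (78.1%) had 5 or more. Per 10000 UMIs, 111 of 147 and 57 of 64 members lay above the highest mature dendritic barcode of their library. The other members cannot be told apart by C1q from dendritic cells that only carry free C1q RNA, so values over all members may include dendritic cells. Whether they are dendritic cells was not tested.

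**Figure D1:**
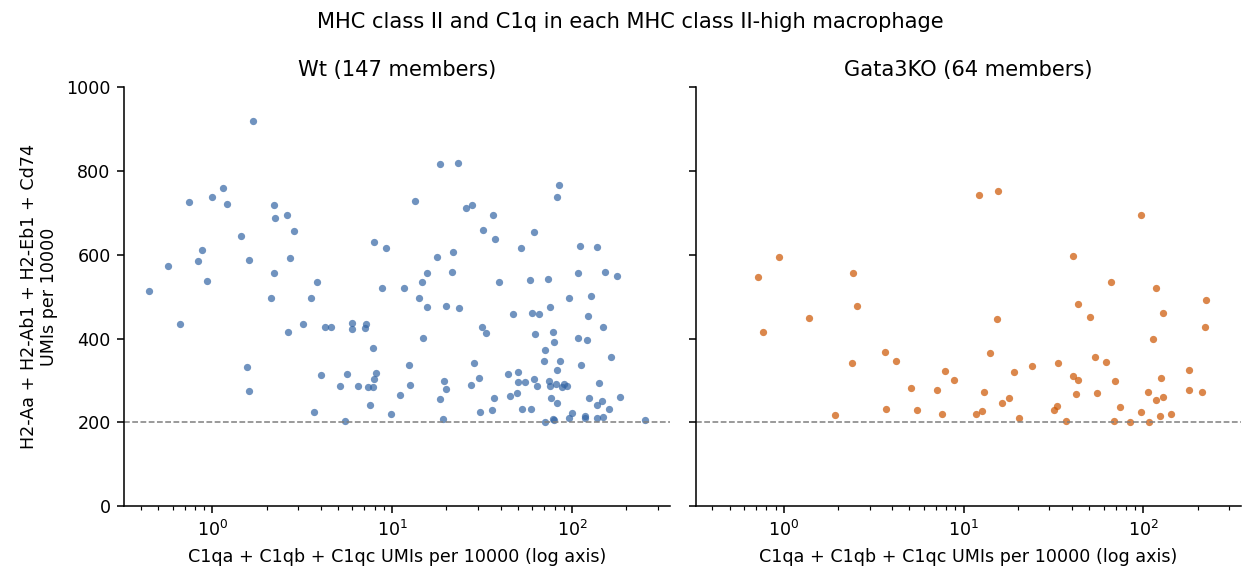
Each point is 1 member, with C1q UMIs per 10000 on a log axis against MHC class II UMIs per 10000, and the dashed line marks the minimum of 200. Members spread over more than 2 powers of 10 in C1q, and members of both libraries lie on each side of every C1q level between 1 and 100.

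Members with little C1q had more of some genes of conventional type 2 dendritic cells and of monocytes, and members with much C1q more of several macrophage genes. The members of both libraries were divided into 3 groups of like size at 12.5 and 63.6 C1q UMIs per 10000, which gave 51, 47 and 49 members from lowest to highest in Wt and 19, 23 and 22 in Gata3KO. *Zbtb46*, a transcription factor of conventional dendritic cells, had 10 UMIs in Wt and 3 in Gata3KO, and all of them lay in the lowest group. *Flt3*, the receptor that sustains dendritic cell development, stood at 56.8, 24.9 and 7.83 CPM from the lowest to the highest group in Wt and at 74.1, 19.7 and 8.70 CPM in Gata3KO. *Dpp4* stood at 138, 44.3 and 33.3 CPM in Wt and at 64.9, 24.7 and 14.5 CPM in Gata3KO. *Clec10a*, a galactose-binding lectin used to mark type 2 dendritic cells and some macrophages, was at 402, 102 and 29.4 CPM in Wt and at 139, 49.3 and 52.2 CPM in Gata3KO. These 4 genes were thus highest in the lowest C1q group of both libraries. So was the type 2 list's summed level, at 1982, 1248 and 1181 CPM in Wt and 1719, 1134 and 1050 CPM in Gata3KO. Not every gene of that list followed. In Gata3KO *Itgax* was at 162, 168 and 174 CPM and *Tnip3* at 51.0, 143 and 20.3 CPM. *Cd24a* was at 44.6, 52.6 and 15.7 CPM in Wt. The monocyte list's summed level fell in the same way. It was 12446, 8118 and 7935 CPM in Wt and 7477, 6412 and 3766 CPM in Gata3KO. Its gene *Plac8* was at 1972, 817 and 644 CPM in Wt and at 630, 335 and 139 CPM in Gata3KO. The monocyte gene *Ly6c2* was highest in the middle group, at 71.0, 567 and 304 CPM in Wt and 315, 789 and 110 CPM in Gata3KO. Genes of type 1 dendritic cells had no common order: the list's summed level was 586, 576 and 717 CPM in Wt and 899, 681 and 557 CPM in Gata3KO. *Irf8*, a transcription factor of dendritic cells and monocytes, was at 136, 274 and 396 CPM in Wt and at 398, 326 and 342 CPM in Gata3KO.

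The opposite order held for *Mertk*, the receptor that binds apoptotic cells, at 4.06, 30.4 and 35.3 CPM in Wt and 23.2, 54.3 and 78.3 CPM in Gata3KO. *Ms4a7*, a membrane gene of macrophages, was at 99.4, 924 and 1130 CPM in Wt and at 542, 799 and 1438 CPM in Gata3KO. *Apoe*, the lipid carrier, was at 1669, 5539 and 17523 CPM in Wt and at 7792, 7438 and 22208 CPM in Gata3KO, so that its order held in Wt while the lower groups of Gata3KO were alike. The summed level of the 20 core macrophage genes went from 8750 to 17715 and 34271 CPM in Wt and from 20967 to 27887 and 54312 CPM in Gata3KO. *Apoe* and *Lyz2* made up most of that sum in the highest group. *Lyz2* was at 3974, 4592 and 7013 CPM in Wt and at 7009, 10752 and 19051 CPM in Gata3KO. Not every gene of the core list followed, and *Fcgr1* in Gata3KO was at 134, 370 and 296 CPM. The MHC class II level itself varied less, with group medians of 438, 428 and 298 UMIs per 10000 in Wt and 341, 311 and 275 in Gata3KO. Over single members Spearman's rho of MHC class II with C1q was -0.36 in Wt (147 members) and -0.13 in Gata3KO (64 members); the cells of a library share its preparation, and both values have the same UMI total as divisor.

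**Figure D2:**
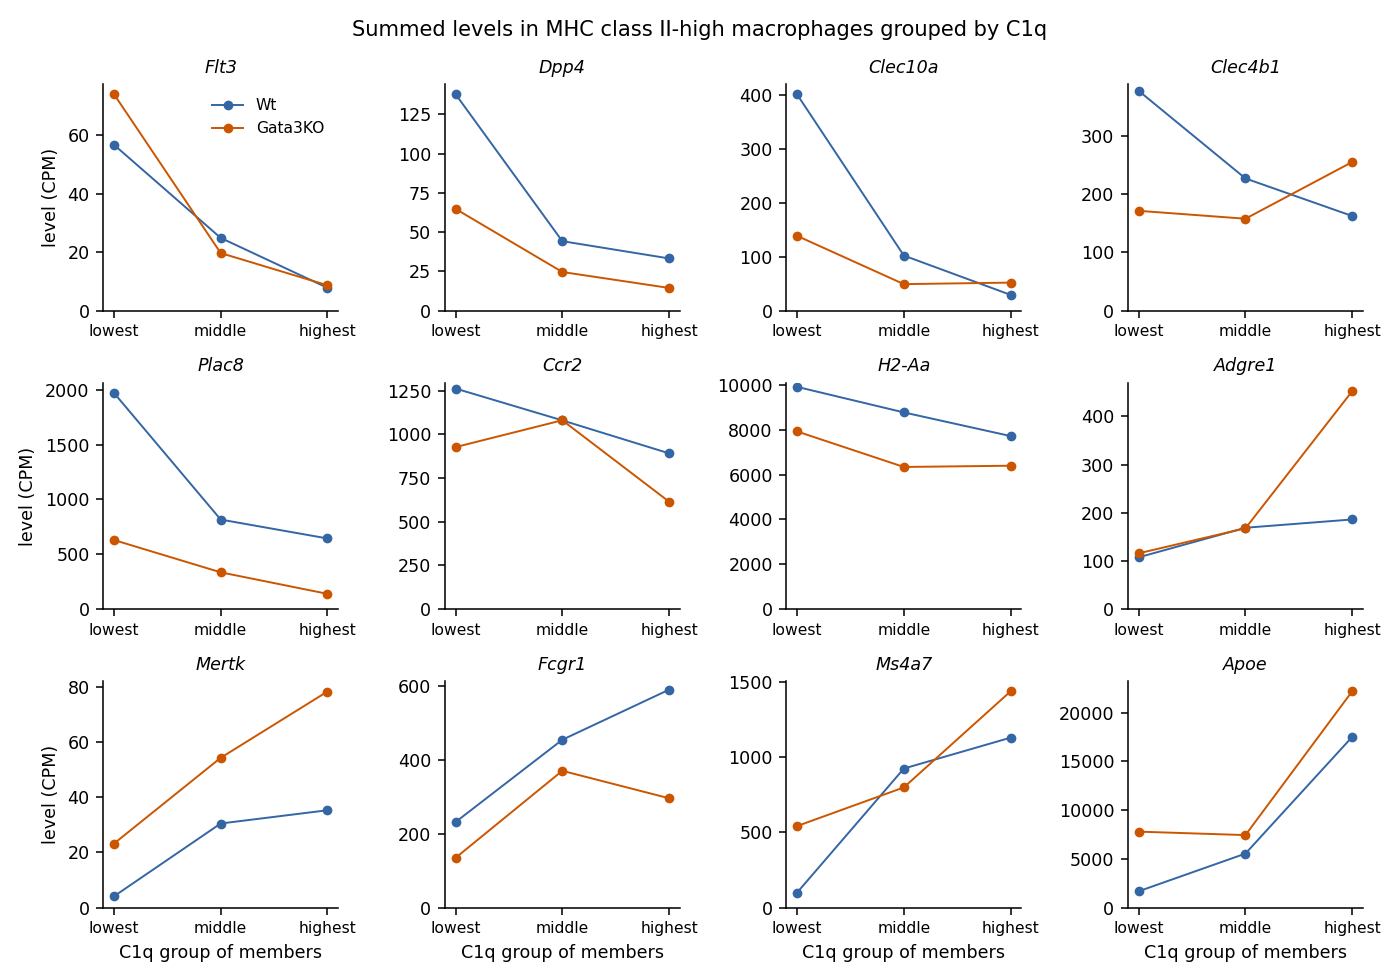
Summed level in CPM, on axes that start at 0, of 12 genes in the members with the lowest, middle and highest C1q of each library (51, 47 and 49 members in Wt, 19, 23 and 22 in Gata3KO). Flt3 and Dpp4 are highest in the lowest C1q group, and Mertk, Ms4a7 and Apoe in the highest.

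Unsupervised clustering of all barcodes within the limits did not hold the members together. The cluster with most of them, led by *Cd209a*, *Plac8*, *Klrd1*, *Ifitm6*, *H2-Oa* and *Ifitm1* and called the *Cd209a*/*Plac8* cluster below, held 95 of 211 (45.0%), which is 51.7% of Wt members and 29.7% of Gata3KO members. Of its 10 leading genes 4 (*Cd209a*, *Klrd1*, *Cd7* and *Kmo*) are in the type 2 dendritic cell list, 2 in the monocyte list and 0 in the core macrophage list. The cluster's genes thus go against a label of macrophages. They were taken over all its 307 barcodes, of which members made up 30.9%. *Cd209a* is limited to 1 UMI in members by the rule, and levels in the cluster's members alone are not shown here. A cluster led by *Cxcl2*, *Gdf15* and *Mmp12* held 10.2% of Wt and 23.4% of Gata3KO members, and a cluster led by *Npl*, *Lpcat2* and *Hebp1* held 10.9% and 14.1%. At a finer resolution 94 members fell in 1 cluster led by *Clec4b1*, *Clec10a*, *Ccr2* and *H2-Ab1*, where they made up 52.5% of its barcodes. Scrublet, a doublet caller, marked 0 of 1119 and 2 of 1004 barcodes (0.199%), 0 of them members, a rate too low to show that it worked, so doublets were left in.

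To ask what set members apart, they were compared with MHC class II-low macrophages, the 550 Wt and 783 Gata3KO barcodes that met every condition except the MHC class II minimum. Members had more of the genes that load MHC class II and of several monocyte and dendritic cell genes, and less of the genes of resident and lipid-handling macrophages. Of 2800 genes with at least 50 CPM and 50 UMIs, 138 (4.93%) were at least 1.5-fold higher in members in both libraries and 102 (3.64%) at least 1.5-fold lower. The barcodes were chosen by their expression, so these values are descriptions. Median-of-ratios scaling gave 104 higher and 142 lower genes, 42.3% of them higher against 57.5% as reported, and totals without mitochondrial, ribosomal protein and MHC class II rule genes gave 245 and 89 (73.4%). Members also had less mitochondrial RNA, with medians of 5.04% and 6.48% of UMIs against 10.5% and 10.2%, and its part in these differences was not tested.

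Among the antigen presentation genes that the rule did not use, *H2-DMb1* and *H2-DMa*, the chains of the H2-DM dimer that exchanges the invariant chain fragment for peptide, stood well above the MHC class II-low level. *H2-DMb1* was at 756 CPM in members and 167 CPM in MHC class II-low macrophages of Wt, and at 554 and 103 CPM in Gata3KO, log2 ratios of 2.18 (interval 2.05 to 2.32) and 2.43 (2.26 to 2.59). *H2-DMa* was at 621 against 163 CPM and 494 against 125 CPM, log2 ratios of 1.93 and 1.99. *Ciita*, the coactivator that switches on MHC class II genes, was at 319 against 104 CPM in Wt and 241 against 39.7 CPM in Gata3KO, and *Napsa*, an aspartic protease, at 486 against 105 and 303 against 90.7 CPM. Of 10 measured genes in the MHC class II presentation list, 5 were at least 1.5-fold higher in both libraries and 0 lower, against 4.43% and 3.28% of all 5604 genes measured (at least 20 CPM, 1 CPM added). The list's median log2 ratio was 0.91 in Wt and 0.68 in Gata3KO, beside 0.09 and 0.02 for all genes. A gene that reached 20 CPM in only 1 class had to differ, so the lists below are also counted over the genes that reached it in both classes and both libraries, of which 3.16% of all 4778 were higher and 2.09% lower. In this list they were 9, with 5 higher and 0 lower. The endosomal protease genes *Ctss* and *Lgmn* were not among the 5: *Ctss* had log2 ratios of 0.09 and -0.34, and *Lgmn* of -0.69 and -0.56.

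The promoters of MHC class II genes carry a conserved module with a Y box, an inverted CCAAT box bound by NF-Y. Windows from 120 to 21 bases before the start in RefSeq (GRCm38.p6) are shown for the class II genes *H2-Aa* (chr17:34287844-34287943, minus strand) and *H2-Eb1* (chr17:34305747-34305846, plus strand), which the rule used, and for *H2-DMb1* (chr17:34153071-34153170, plus strand), which it did not, to show the element they share. Each is written 5′ to 3′ on the gene's strand with the letters TGATTGG in capitals. The first 2 windows lie outside the GENCODE gene models, and the third lies in that of *H2-DMb1*, which starts at 34153072.
H2-Aa: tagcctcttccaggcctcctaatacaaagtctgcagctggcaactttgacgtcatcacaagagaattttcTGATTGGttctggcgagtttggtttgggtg
H2-Eb1: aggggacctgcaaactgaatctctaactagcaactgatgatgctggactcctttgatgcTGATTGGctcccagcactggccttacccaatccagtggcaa
H2-DMb1: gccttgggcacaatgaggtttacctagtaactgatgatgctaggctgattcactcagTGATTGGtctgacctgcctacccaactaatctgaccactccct
The capitals begin 50, 61 and 63 bases before the start. The 7 letters, chosen after these windows were read and searched on both strands from 250 bases before to 50 after the start, occurred in 2568 of 32851 promoter windows of the table (7.82%). They occurred in 6 of the 13 presentation list genes with an entry, *H2-DMb1*, *H2-DMb2*, *H2-Eb2*, *H2-Oa*, *H2-Ob* and *Rfx5*, and in 2 of 11 genes furthest above the MHC class II-low level, *H2-DMb1* and *Plac8*. A gene was counted if any of its windows held the letters, so these counts are not on the same measure as the share of windows. A match of these letters describes the sequence and does not show binding.

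The gene furthest above the MHC class II-low level was *Klrd1*, which encodes the CD94 receptor chain of natural killer cells and is also found in some dendritic cells. It was at 85.7 CPM against 2.94 CPM in Wt and at 73.3 against 0.622 CPM in Gata3KO, log2 ratios of 4.86 (4.06 to 5.78) and 6.88 (5.67 to 8.39). Only 28 of 147 and 10 of 64 members had a *Klrd1* UMI, and 1 member held 57.1% of the Gata3KO UMIs. With at least 5 C1q UMIs required, its log2 ratios were 3.37 and 4.85. Of the T and NK cell list only *Il7r* reached 20 CPM in members, at 112 CPM in Wt and 82.5 CPM in Gata3KO.

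*Plac8*, a gene of classical monocytes and some dendritic cells, was at 1169 against 94.6 CPM in Wt and 330 against 26.0 CPM in Gata3KO, log2 ratios of 3.63 and 3.67. *Ccr2* was at 1075 against 270 CPM and 826 against 204 CPM, log2 ratios of 1.99 and 2.02. *Ly6c2*, which encodes the monocyte antigen Ly6C, was at 289 against 110 CPM in Wt and 348 against 192 CPM in Gata3KO. Of 11 measured monocyte genes, 5 were at least 1.5-fold higher in both libraries and 1, *Fn1*, lower, with list medians of 1.11 and 0.50; of the 9 that reached 20 CPM throughout, 5 were higher and 0 lower.

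The type 2 dendritic cell list held 8 measured genes, of which 6 were at least 1.5-fold higher and 0 lower, with medians of 2.33 and 1.93. Only 3 reached 20 CPM in both classes, and 2 of these were higher. *Flt3* was at 30.04 against 2.52 CPM in Wt and at 30.1 against 0.622 CPM in Gata3KO, and *Dpp4* at 74.0 against 5.68 and 31.4 against 1.86 CPM. The lectin *Clec4b1*, a marker of the label, was at 257 against 25.02 CPM and 206 against 18.2 CPM (log2 ratios 3.36 and 3.50). *Clec10a*, the other lectin marker, was at 183 against 44.8 CPM and 76.0 against 22.2 CPM, and *Rnase6*, an antimicrobial ribonuclease, at 189 against 30.3 CPM and 73.3 against 14.5 CPM. *Plbd1*, a phospholipase-like gene, had log2 ratios of 2.54 and 2.29, *Tmem176a* and *Tmem176b*, channel-like membrane proteins, of 2.21 and 2.52 and of 2.07 and 2.16, *Olfm1* of 2.26 and 2.11, and *Cbfa2t3*, a transcriptional corepressor, of 2.05 and 2.65.

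**Figure D3:**
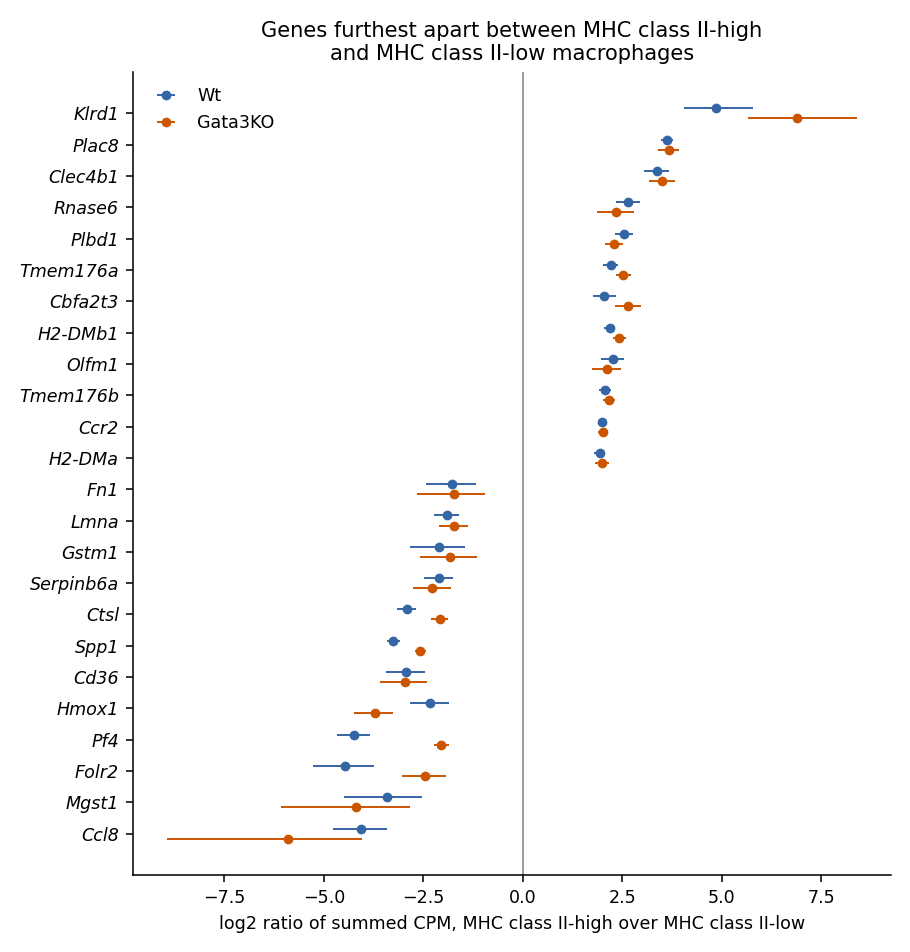
Log2 ratio of summed CPM in MHC class II-high over MHC class II-low macrophages for the 12 genes furthest above and below 0, in Wt and Gata3KO; bars are exact intervals for counting error. Klrd1 lies furthest to the right in both libraries and Ccl8, Mgst1, Folr2 and Pf4 are among the furthest to the left.

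Below the MHC class II-low level lay genes of resident macrophages. *Ccl8*, a chemokine of resident macrophages, was at 14.7 against 244 CPM in Wt and at 2.62 CPM (2 UMIs) against 156 CPM in Gata3KO, log2 ratios of -4.06 (-4.77 to -3.42) and -5.89 (-8.94 to -4.04). *Folr2*, folate receptor beta, was at 11.7 against 258 CPM and 38.0 against 208 CPM, log2 ratios of -4.46 and -2.45, and *Pf4* at 37.4 against 705 CPM and 321 against 1324 CPM, -4.24 and -2.05. Of 12 measured resident macrophage genes, 0 were at least 1.5-fold higher in both libraries and 11 at least 1.5-fold lower, with medians of -2.84 and -1.65; *Mrc1*, the mannose receptor, was the exception at -1.15 and -0.27. Of the 6 that reached 20 CPM in both classes 5 were lower.

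Lipid handling and haem genes were lower too. *Spp1*, osteopontin, was at 238 against 2275 CPM in Wt and 568 against 3385 CPM in Gata3KO, and *Cd36*, a receptor for oxidised lipid, at 27.1 against 207 CPM and 34.1 against 265 CPM. *Ctsl*, cathepsin L, had log2 ratios of -2.92 and -2.09, and *Gpnmb* was at 317 against 1266 CPM and 1215 against 2336 CPM. Of 20 lipid-handling genes, 0 were at least 1.5-fold higher and 12 lower in both libraries, and of the 18 at 20 CPM throughout, 10 were lower. *Hmox1*, haem oxygenase 1, was at 28.6 against 143 CPM in Wt and 47.1 against 623 CPM in Gata3KO, log2 ratios of -2.33 and -3.72. Of 14 iron and haem genes 0 were higher and 5 lower (3 of the 12 at 20 CPM throughout), among them *Slc40a1*, the iron exporter ferroportin, with 3 UMIs in Wt members (2.20 against 23.3 CPM, log2 ratio -3.41, -5.71 to -1.82) and 2 in Gata3KO (2.62 against 60.4 CPM, -4.53, -7.58 to -2.67).

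The core macrophage list divided. Of 20 genes, 0 were at least 1.5-fold higher and 6 lower in both libraries, with medians of -0.64 and -0.33. *Ctsd*, cathepsin D, was at 940 against 4131 CPM and 2894 against 6507 CPM, and *Maf*, a transcription factor of macrophages, at 127 against 352 CPM and 251 against 439 CPM. *Fcgr1*, *Csf1r* and *Itgam*, the CD11b gene of the sort, were close in both classes, with log2 ratios of -0.07 and -0.02, of -0.28 and 0.16 and of 0.03 and 0.15. Of 15 repair and growth factor genes 0 were higher and 6 lower, among them *Igf1*, insulin-like growth factor 1, at 15.4 against 142 CPM and 64.2 against 208 CPM; of the 8 repair genes at 20 CPM throughout, 1 was lower. *Pdgfb* went the other way, at 76.9 against 53.4 and 76.0 against 31.0 CPM. Muscle transcripts were lower in members as well: *Acta1* was at 45.4 against 239 CPM in Wt and 19.6 against 48.9 CPM in Gata3KO, and their part in these differences was not tested.

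The nearest dendritic neighbours were the *Cd209a* barcodes already named, 38 in Wt and 18 in Gata3KO. Members had more macrophage and lipid-handling RNA than these and less of the dendritic genes. Of 2588 genes, 264 (10.2%) were at least 1.5-fold higher in members in both libraries and 137 (5.29%) lower. *Cd63*, a lysosomal tetraspanin, was at 681 against 52.4 CPM in Wt and 881 against 35.6 CPM in Gata3KO, *Fabp5*, a fatty acid carrier, at 1176 against 102 and 1853 against 91.5 CPM, and *Trem2*, a lipid-sensing receptor, at 290 against 52.4 and 599 against 35.6 CPM. *Lpl*, *Cxcl2*, *Fgd4*, *Capg* and *Fcgr3* were the other genes furthest higher, with log2 ratios between 2.53 (*Fcgr3*) and 3.25 (*Lpl*) in Wt. All 19 measured core macrophage genes were at least 1.5-fold higher in both libraries, beside 8.78% of all 5822 genes. Of these, 16 reached 20 CPM in both classes, where 6.24% of all 4309 such genes were higher.

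On the other side, *H2-Oa*, a chain of the H2-O dimer that restrains H2-DM, was at 41.8 against 309 CPM and 17.0 against 279 CPM. *Klrd1* was at 85.7 against 642 CPM and 73.3 against 498 CPM, and *Flt3* at 30.04 against 136 CPM and 30.1 against 213 CPM, so members lay between the MHC class II-low macrophages and the *Cd209a* barcodes for both genes. Of 15 measured type 2 dendritic cell genes, 10 were at least 1.5-fold lower and 1 higher in both libraries, beside 7.33% and 8.78% of all genes; of the 7 that reached 20 CPM throughout, 4 were lower and 1 higher. The MHC class II presentation list had 5 of 13 genes lower (medians -0.53 and -0.68) and 2 higher, *Ctss* and *Lgmn*. With at least 5 C1q UMIs required in both classes the counts were 164 higher and 44 lower. They rest on few *Cd209a* barcodes, above all in Gata3KO. The upper quartile of C1q UMIs in *Cd209a* barcodes was 2.75 in Wt and 1.75 in Gata3KO. In Gata3KO the 90th percentile was 3.3, under the limit of 5, and the highest value was 12. The counts with this limit are therefore no firm values. Median-of-ratios scaling gave 357 and 72, 83.2% of them higher against 65.8% as reported.

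Barcodes with 10 or more interferon UMIs per 10000 that met every other condition numbered 62 in Wt and 4 in Gata3KO, too few in Gata3KO for a firm value. Of 2329 genes, 55 (2.36%) were at least 1.5-fold higher in members in both libraries and 70 (3.01%) lower, and median-of-ratios scaling gave 75 and 54, 58.1% of them higher against 44%. Members had less *Ccl5*, a T cell-attracting chemokine, at 94.5 against 545 CPM in Wt and 78.6 against 1205 CPM in Gata3KO, and less *Fgl2*, at 161 against 529 and 64.2 against 390 CPM. *Gpnmb* was higher in members, at 317 against 154 CPM and 1215 against 122 CPM. Of 11 presentation list genes 0 were higher and 2 lower, beside 4.64% and 4.67% of all 5565 genes.

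The study's own comparison was Gata3KO with Wt. *Gata3*, the targeted transcription factor, had 0 UMIs in members of both libraries, which allows a share of members with a UMI of up to 2.04% in Wt and 4.69% in Gata3KO (3 counts of the total; the exact Clopper-Pearson upper bounds are 2.48% and 5.60%), and it had 8 UMIs over all barcodes in each. At this level the transcript says nothing on the deletion. *Cx3cr1*, whose promoter drives the Cre, was at 291 CPM in Wt and 537 CPM in Gata3KO members, a log2 ratio of 0.88 (0.68 to 1.09).

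Gata3KO members had more RNA of several resident macrophage genes and less of many interferon-response genes. Of 3148 genes, 274 (8.7%) were at least 1.5-fold higher in Gata3KO and 288 (9.15%) at least 1.5-fold lower. The *Cd209a*/*Plac8* cluster held 51.7% of Wt and 29.7% of Gata3KO members, so values within it, from 76 and 19 members, are given where they differ. The MHC class II genes of the rule were somewhat lower in Gata3KO: *H2-Aa* at 8794 and 6816 CPM, *H2-Ab1* at 10573 and 7379 CPM, *H2-Eb1* at 9992 and 7190 CPM and *Cd74* at 15429 and 13698 CPM in Wt and Gata3KO, with log2 ratios from -0.52 (*H2-Ab1*) to -0.17 (*Cd74*). All members lie above a common minimum, which limits how far these can differ.

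*Chil3*, the chitinase-like protein Ym1 of monocytes and alternatively activated macrophages, was furthest higher. It had 5 UMIs in 5 of 147 Wt members (3.66 CPM) and 118 UMIs in 20 of 64 Gata3KO members (155 CPM), a log2 ratio of 5.40 (4.14 to 7.05). After thinning, 2.72% and 21.9% of members had a *Chil3* UMI (3.40% and 31.3% unthinned), against 0 of 32 and 0 of 7 mature dendritic barcodes. MHC class II-low macrophages also had more in Gata3KO, 243 CPM against 17.0 CPM in Wt. *F13a1*, coagulation factor XIII A, was at 5.86 CPM in Wt and 79.9 CPM in Gata3KO members (log2 ratio 3.77, 2.70 to 5.04), beside 38.3 and 140 CPM in MHC class II-low macrophages.

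*Pf4*, platelet factor 4, was at 37.4 CPM in Wt members and 321 CPM in Gata3KO members, a log2 ratio of 3.10 (2.66 to 3.57), which was 0.32 within the *Cd209a*/*Plac8* cluster. *Thbs1*, thrombospondin 1, was at 13.2 and 87.8 CPM, *Igf1* at 15.4 and 64.2 CPM and *Osm*, oncostatin M, at 12.5 and 68.1 CPM. *Il1b*, interleukin 1 beta, was at 124 and 529 CPM, a log2 ratio of 2.10 (1.83 to 2.36), which was 1.32 with at least 5 C1q UMIs required. *Ier3*, an early response gene, was at 73.3 and 330 CPM (log2 ratio 2.17, and 1.44 with at least 5 C1q UMIs), and *Gpnmb* at 317 and 1215 CPM (1.94). *Gdpd3*, a lysophospholipase, stood at 21.98 and 131 CPM, *Rab20* at 16.1 and 65.5 CPM and *Gcnt2* at 13.2 and 52.4 CPM.

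The same genes in MHC class II-low macrophages had log2 ratios of 1.88 (*Thbs1*), 0.55 (*Igf1*), 1.24 (*Osm*), 0.88 (*Il1b*), 1.63 (*Ier3*), 0.88 (*Gpnmb*), 2.65 (*Gdpd3*), 0.91 (*Pf4*), 1.19 (*Rab20*) and 0.50 (*Gcnt2*). All were above 0, as in members; whether the size differs between the classes was not tested.

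**Figure D4:**
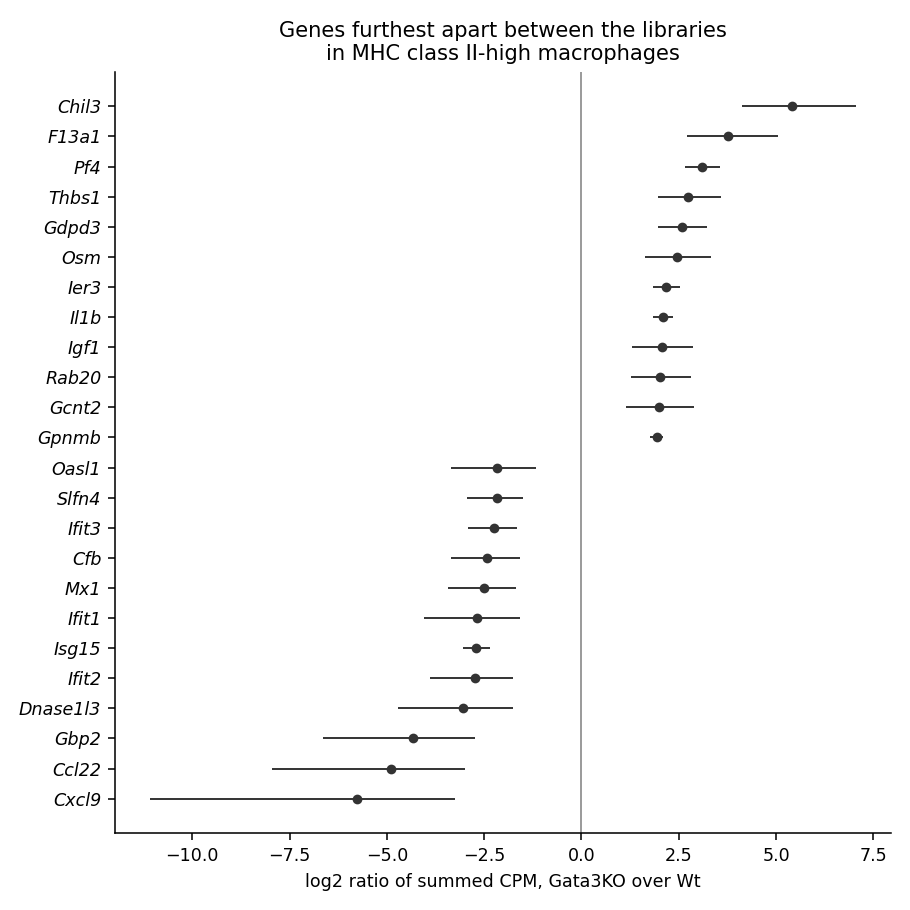
Log2 ratio of summed CPM in Gata3KO over Wt members for the 12 genes furthest in each direction; bars are exact intervals for counting error. Chil3 is furthest higher and Cxcl9, Ccl22 and Gbp2 furthest lower, with the widest intervals where 1 to 5 UMIs were counted in 1 library.

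Several of the genes furthest lower are known to be induced by interferon. *Cxcl9*, a chemokine induced by interferon gamma, had 97 UMIs in 15 Wt members (71.1 CPM) and 1 UMI in Gata3KO (1.31 CPM), a log2 ratio of -5.76 (-11.1 to -3.25). It was -2.39 once members were thinned, with at most 1 UMI left in Gata3KO. Without the member with most of its UMIs in each library it was -3.78. Gata3KO then had 0 UMIs, set to 3 counts, so this smaller value reflects that setting. *Gbp2*, a guanylate-binding GTPase, had 108 UMIs in 47 Wt members (79.1 CPM) and 3 in Gata3KO (3.93 CPM), -4.33 (-6.63 to -2.75). *Isg15*, a ubiquitin-like modifier, had a UMI in 127 of 147 Wt members and 25 of 64 Gata3KO members, at 646 and 99.5 CPM, a log2 ratio of -2.70 (-3.06 to -2.36) that was -1.54 within the *Cd209a*/*Plac8* cluster. *Mx1*, an antiviral GTPase, was at 96.0 and 17.0 CPM, *Slfn4* at 119 and 26.2 CPM, *Oasl1* at 52.7 and 11.8 CPM and *Cfb*, complement factor B, at 90.8 and 17.0 CPM. *Ifit1*, *Ifit2* and *Ifit3*, at -2.69, -2.73 and -2.25, were in the rule, which held them under 1 limit in both libraries.

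*Ccl22*, a chemokine of mature dendritic cells, had 106 UMIs in 6 Wt members, 95.3% of them in 1 member, and 2 UMIs in Gata3KO. Its log2 ratio of -4.89 was -1.47 without the member with most UMIs in each library and -0.26 with at least 5 C1q UMIs. *Dnase1l3*, a secreted nuclease, had 74 UMIs in 20 Wt members and 5 UMIs in 4 Gata3KO members, -3.05, which was -0.78 within the *Cd209a*/*Plac8* cluster.

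The markers of the label differed less. *Clec4b1* was at 257 CPM in Wt and 206 CPM in Gata3KO (log2 ratio -0.32, -0.60 to -0.05) and *Ccr2* at 1075 and 826 CPM (-0.38, -0.52 to -0.24). *Clec10a* was at 183 and 76.0 CPM (-1.27, -1.71 to -0.85), which was -0.60 once members were thinned, and *Rnase6* at 189 and 73.3 CPM (-1.37, -1.81 to -0.94), which was -0.71 within the *Cd209a*/*Plac8* cluster. *Flt3* was at 30.04 and 30.1 CPM (0.00, -0.80 to 0.77). Of macrophage receptors, *Adgre1* was at 153 and 282 CPM and *Mertk* at 22.7 and 56.3 CPM, higher in Gata3KO overall and lower within the *Cd209a*/*Plac8* cluster (-0.24 and -1.17), while *Fcgr1* was at 424 and 270 CPM (-0.65).

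Among 6074 genes at 20 or more CPM in members, 10.5% were at least 1.5-fold higher in Gata3KO and 10.9% lower, with a median of 0.00. A gene that reached 20 CPM in only 1 library had to differ; 527 genes did so in Wt only and 474 in Gata3KO only. Lists are therefore also counted over the genes at 20 CPM in both libraries, of which 7.16% of all 5073 were higher and 6.8% lower. Of 28 type I interferon response genes outside the rule, 0 were higher and 27 lower, with a median log2 ratio of -1.38; the least apart was *Trim30a* at 174 and 120 CPM (-0.52). Of these, 8 reached 20 CPM in Wt only, and of the 20 that reached it in both, 19 were lower (median -1.36). Of 15 interferon gamma response genes, 0 were higher and 13 lower (median -1.62), but 8 of them reached 20 CPM in Wt only, and of the other 7, 5 were lower (median -0.85). Of 16 MHC class I presentation genes, 0 were higher and 9 lower (median -0.86), or 8 of the 15 at 20 CPM in both. *Nlrc5*, the coactivator of MHC class I genes, was at 47.6 and 10.5 CPM, *Tap2*, a chain of the peptide transporter, at 108 and 36.7 CPM and *H2-T23* at 647 and 278 CPM. The MHC class II presentation list was closer, with 0 of 13 genes higher and 4 lower (median -0.33), or 2 of the 10 at 20 CPM in both: *H2-Ob* at 24.9 and 6.55 CPM, *H2-Oa* at 41.8 and 17.0 CPM, the costimulatory receptor gene *Cd40* at 50.6 and 30.1 CPM and *Napsa* at 486 and 303 CPM. *Ciita* was at 319 and 241 CPM (-0.41).

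In MHC class II-low macrophages the medians of these 4 lists were -1.51, -1.61, -0.58 and -0.10, with 27 of 27, 15 of 15, 8 of 16 and 3 of 10 genes at least 1.5-fold lower, where 4.56% of all 5851 genes were. The members had passed a limit on interferon genes that 75.2% of Wt and 94.9% of Gata3KO barcodes met, and their Wt level of those genes was still the higher one.

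Of the resident macrophage list 16 genes were in the tables, 10 reached 20 CPM in a library, and 9 of these were at least 1.5-fold higher in Gata3KO and 0 lower (median 1.63). *F13a1*, *Folr2*, *Igf1* and *Gas6* reached it in Gata3KO only, and of the 6 that reached it in both, 5 were higher (median 1.23). *Ccl8*, under 20 CPM in both, was lower in Gata3KO, at 14.7 and 2.62 CPM (20 and 2 UMIs, log2 ratio -2.48, -5.63 to -0.44). The repair list had 9 of 16 genes higher and 0 lower (0.75), but 8 of the 16 reached 20 CPM in Gata3KO only, and of the other 8, 1 was higher. The resident genes besides *F13a1*, *Pf4* and *Igf1* included *Mrc1* at 60.1 and 191 CPM (log2 ratio 1.67, 1.27 to 2.08), *Stab1*, a scavenger receptor, at 71.8 and 168 CPM and *Selenop*, a selenium carrier, at 511 and 1058 CPM; *Ninj1* was the tenth, at 89.4 and 98.2 CPM. In MHC class II-low macrophages 5 of 12 resident genes were higher and 1 lower (median 0.55). The lower MHC class II minimum of 100 per 10000, which let in more barcodes, brought the resident median in members to 0.79.

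The iron and haem list had 7 of 13 genes higher and 0 lower (median 0.70; 6 of the 12 at 20 CPM in both), among them *Trf*, transferrin, at 116 and 258 CPM and *Nfe2l2*, the oxidative stress factor NRF2, at 146 and 299 CPM. The core macrophage list had 9 of 20 higher and 1 lower (0.49), with *Ctsd* at 940 and 2894 CPM and *Lyz2*, lysozyme, at 5274 and 13443 CPM. The lipid-handling list had 9 of 18 higher and 1 lower (0.49), with *Abca1*, the cholesterol exporter, at 55.7 and 170 CPM and *Spp1* at 238 and 568 CPM; *Mmp12*, macrophage elastase, was the lower one, at 71.1 and 35.4 CPM, but 1 Wt member held 40.2% of its UMIs and its log2 ratio of -1.01 was 0.65 and 0.99 with MHC class II minimums of 300 and 100 per 10000. The lysosome list had 8 of 26 higher and 0 lower (0.33). Within the *Cd209a*/*Plac8* cluster the lipid and lysosome medians were -0.13 and -0.14, and the core macrophage and iron medians 0.18 and 0.31.

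Inflammatory genes went both ways, with 7 of 14 higher and 3 lower, or 5 and 3 of the 12 at 20 CPM in both (median 0.09). Over all 14 the median was 0.47, and 0.11 to 1.31 over the other settings. Beside *Il1b* and *Osm*, *Ptgs2*, cyclooxygenase 2, was at 14.7 and 49.8 CPM, while *Il1rn*, the interleukin 1 receptor antagonist, was at 105 and 38.0 CPM. The early response list had 10 of 25 higher and 1 lower (0.33), with *Fos*, a subunit of AP-1, at 233 and 673 CPM; the list's median was 0.06 with at least 5 C1q UMIs. Efferocytosis genes had 6 of 14 higher and 0 lower (0.38), or 4 of the 12 at 20 CPM in both, with *Gas6*, a bridging ligand of *Mertk*, at 12.5 and 44.5 CPM. The alternative activation list had 5 of 10 higher and 1 lower (0.40), or 2 and 1 of the 6 at 20 CPM in both (median -0.01), with *Ear2* at 6.59 and 35.4 CPM, and *Arg1* had only 3 UMIs in Wt and 1 in Gata3KO. The monocyte list went both ways, with *Chil3* and *Lyz1*, at 20 CPM in Gata3KO only, higher and 4 of 12 lower, among them *Plac8* at 1169 and 330 CPM, *Ifitm6* at 69.6 and 17.0 CPM and *Ms4a4c* at 1091 and 377 CPM.

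Some lists stayed near 0, while the medians of the type 2 dendritic cell and cell cycle lists were lower in Gata3KO. Of 32 nuclear genes of oxidative phosphorylation 0 were higher and 0 lower (median 0.01), of 8 genes of IL-33 receptor signalling and *Ucp2*, the cytokine pathway in the series' title, 0 and 0 (0.00), with *Ucp2*, a mitochondrial carrier, at 610 and 684 CPM, and of 17 glycolysis genes 0 and 3 (0.24). Type 2 dendritic cell genes had 1 of 12 higher and 3 lower (-0.38), with *Kmo* at 42.5 and 11.8 CPM. Of the 8 at 20 CPM in both, 0 were higher and 1 lower (median -0.29). Over the other settings the median of this list was -0.57 to -0.04. Cell cycle genes had 2 of 20 higher and 11 lower (-0.67), which was 0.10 with every member weighted alike; of the 11 at 20 CPM in both, 0 were higher and 7 lower. The remaining lists were C-type lectins (5 of 14 higher, 3 lower), complement (3 of 10 and 1), Fc receptors (2 of 7 and 2), type 1 dendritic cells (0 of 6 and 3), mature dendritic cells (0 of 5 and 2) and plasmacytoid dendritic cells (0 of 2 and 1).

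Few markers of other cells reached 20 CPM in members. Of the neutrophil, T and NK, B cell and fibroblast and endothelial lists 1, 1, 2 and 1 genes reached 20 CPM, and of the erythroid and mast cell lists 0. The highest of these was *Ighm*, the heavy chain gene of IgM, at 204 CPM in Wt and 187 CPM in Gata3KO members, beside 114 and 56.0 CPM in MHC class II-low macrophages and 218 and 178 CPM in *Cd209a* barcodes; the part of B cell RNA was not tested. The fibroblast genes *Dcn* and *Lum* had 0 UMIs in both. The skeletal muscle list had 4 measured genes with summed levels of 240 CPM in Wt and 123 CPM in Gata3KO, 0 higher and 3 lower, and in MHC class II-low macrophages 10 of 10 muscle genes were lower in Gata3KO; the part of muscle RNA in the comparison was not tested.

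**Figure D5:**
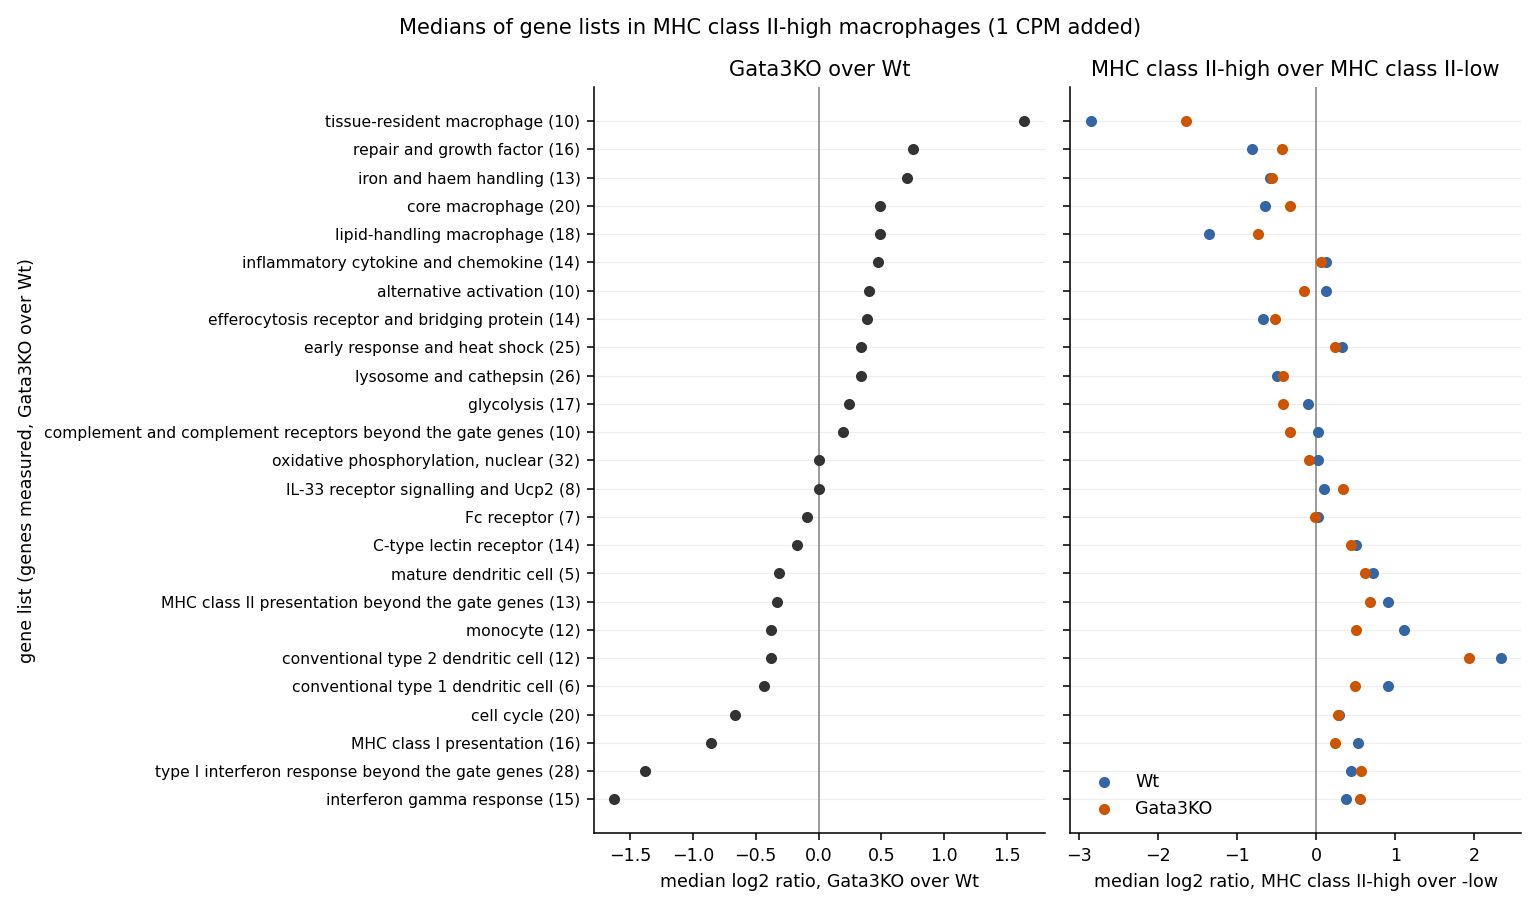
Median log2 ratio of each gene list with 5 or more measured genes, left for Gata3KO over Wt members and right for MHC class II-high over MHC class II-low macrophages in each library, on the scale with 1 CPM added. The interferon lists are lowest and the resident macrophage list highest on the left, and the resident macrophage list is lowest and the type 2 dendritic cell list highest on the right.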

How the data were processed

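Each library was deposited by the authors as a table of raw UMI counts with genes in rows and cell barcodes in columns. The submitters' processing notes name Cell Ranger (3.0.1), Seurat (3.0.2), R (3.6.1) and the build mm10; cell filters before deposit were not stated in the labels. The 13289 genes in both tables were compared. Counts of members were summed per library and given as CPM, with exact conditional binomial intervals for log2 ratios (Python 3.11.15 with pandas 2.3.3, scipy 1.17.1 and numpy 2.4.6). The total was 1364934 UMIs over Wt and 763524 over Gata3KO members. Genes needed at least 50 CPM in 1 of the sums compared and 50 UMIs over both; lists used 20 CPM with 1 CPM added.

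Members and gene lists were chosen with earlier results of these data known, and the C1q groups and the promoter motif after seeing the data. Named genes were the genes and markers of the rule, *Gata3*, *Cx3cr1*, a fixed panel, the 12 largest ratios each way between libraries and against MHC class II-low macrophages, 8 each way against the other classes, up to 3 highest and 3 lowest genes of each list, and up to 6 genes leading a cluster with 10% or more of the members; ratios pass over *Xist*, *Tsix*, Y-linked, haemoglobin, immunoglobulin, mitochondrial and predicted genes. Clusters came from scanpy 1.11.5 and leidenalg 0.10.2 at resolutions 0.6 and 1.2. The ratio step was tested on simulated counts of 3047 genes for Gata3KO and Wt members, with counting error only: 95.3% of intervals contained the simulated ratio, and they lay on the right side of 0 for 79.7% of genes changed 1.5-fold, 96.9% changed 2-fold and 100% changed 4-fold. Alternatives changed the UMI, mitochondrial, MHC class II and C1q limits, doublets, scaling, weighting, depth and filters. Genes named outside this rule were chosen after their values were seen. Values within and outside the *Cd209a*/*Plac8* cluster, list counts over genes at 20 CPM on both sides, and values without the member with most UMIs of a gene were added after seeing the data.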

Additional observations from a re-analysis of the deposited data

Results flagged for a closer look

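Barcodes outside the UMI and mitochondrial limits that met every other condition of the rule were not analysed. They numbered 116 in Wt, 112 of them with under 3000 UMIs and 36 with over 20% mitochondrial UMIs, with a median of 1786 UMIs. In Gata3KO they numbered 83, 81 with under 3000 UMIs and 23 over the mitochondrial limit, with a median of 1987 UMIs.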

How the results depend on the processing

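No paired analysis was possible because there was 1 library per genotype and no test. The share of members in Wt was 17.2% with a mitochondrial limit of 10%, 8.67% and 21.6% with MHC class II minimums of 300 and 100 per 10000 and 9.56% with at least 5 C1q UMIs, and in Gata3KO 8.69%, 3.39% and 12.9% under the first 3. Genes higher in Gata3KO numbered 180 after thinning, 128 and 430 with filters of 100 and 20 CPM and 176 within the *Cd209a*/*Plac8* cluster, and genes lower 127 and 507 under those filters. Over MHC class II-low macrophages, higher genes numbered 223 and 80 with minimums of 300 and 100, 88 with 5 C1q UMIs, 245 on totals without mitochondrial, ribosomal protein and MHC class II rule genes, 250 with members weighted alike, 293 after thinning and 81 and 252 with filters of 100 and 20 CPM, and lower genes 53 with the minimum of 100, and 53 and 198 under the filters. Over *Cd209a* barcodes they numbered 164 higher and 44 lower with 5 C1q UMIs. That limit lay above the 90th percentile (3.3 UMIs) of the Gata3KO *Cd209a* barcodes, so these counts are no firm values. They numbered 72 lower there with median-of-ratios scaling, and below interferon-high barcodes 29 with the 10% limit. The cause was not tested. Median-of-ratios scaling moved the median of tested genes from 0.13 to 0.01 over Wt MHC class II-low macrophages, from -0.05 and 0.05 to 0.10 and 0.23 over *Cd209a* barcodes, and from 0.06 to 0.36 over Gata3KO interferon-high barcodes. Direction changed for the cell cycle list (0.10 weighted alike, 0.10 thinned, 0.059 within the *Cd209a*/*Plac8* cluster), *Adgre1* (-0.24) and *Mertk* (-1.17) within that cluster, *Mmp12* (0.65 and 0.99 with minimums of 300 and 100, 4.96 within the cluster), *Fn1* in Gata3KO over MHC class II-low (0.23, minimum of 100) and the B cell list there (-0.26, thinned). Medians and ratios below 1.5-fold could also change sign. The smaller total of Gata3KO members, 763524 UMIs over 64 members, limits genes with few UMIs.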
